A study of Caenorhabditis elegans with 8 samples.

Results

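The genes described here are the neighbours of sid-1 on chromosome V of Caenorhabditis elegans, taken by map position alone. A gene belongs to the group if its locus in the deposited tables lies within about 500 kb of sid-1 (V:5119970-5126916) on either side; the outermost members start at V:4617947 and end at V:5630892. Positions are those of the authors' files, counted from 1, and their build is not given in the sources used here. sid-1 itself and the names of 8 large families (col-, nhr-, clec-, fbxa-, ugt-, cyp-, gst- and ceh-) were left out. This gave 224 of the 20541 genes listed, with 118 to the left of sid-1 and 106 to the right. The window holds 244 genes in all, of which 19 carry one of those family names. The WBcel235 annotation has 221 of the members, and it marks 217 as protein coding and 4 as pseudogenes. One member, H23N18.4, is called ugt-67 there but stands under its sequence name in the tables and was kept. The tables give overlapping genes 1 merged locus, so the distance of 29 members that share a locus is that of the merged stretch.

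Polyadenylated RNA came from whole young adult worms of 2 strains. N2 is the wild-type laboratory strain, and HC125 is read here as the strain with the Psid-1::gfp transgene named in the design, in which the sid-1 promoter drives green fluorescent protein. The labels do not say where the transgene is inserted, how many copies it has or how the strain was made. Each strain had 4 libraries, 2 in a paired-end experiment without strand information and 2 in a single-end, stranded experiment made with another kit. The deposited tables hold 1 pooled value per gene, strain and experiment in FPKM, that is, fragments scaled by transcript length and by the mapped fragments of the library. Levels are written as N2 against HC125, and a second pair of values is that of the single-end experiment. No spread between libraries can therefore be shown, and the depth behind the values is unknown. The error printed with a ratio is the one implied by the authors' test statistic, and 95% intervals rest on it. Whether replicates are separate cultures is not in the labels, and the deposited p-values may then rest on technical spread alone. In whole worms, fewer cells of a type and less RNA per cell cannot be told apart.

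As background, sid-1 encodes a membrane channel that lets double-stranded RNA enter cells, and worms without it cannot spread RNA interference between tissues. In C. elegans, small RNAs can silence a gene in the nucleus, the silent state can pass to later generations, and the chromatin marks it leaves can extend beyond the gene that is targeted. Chromosome V is also known for dense clusters of chemoreceptor genes, which act in sensory neurons and are hardly detectable in RNA of whole animals.

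Next to sid-1, the pair of genes on its left fell in HC125 in both experiments, and no other member was called lower in either. C04F5.9 (WBGene00015451; V:5114745-5119209, minus strand) lies 760 bp to the left of sid-1, which is on the plus strand. It had 32.6 FPKM in N2 against 6.26 FPKM in HC125 with paired ends, and 10.2 against 1.98 FPKM with single ends. C04F5.8 (WBGene00015450; V:5111497-5113754, minus strand) lies 990 bp further left. It had 60.8 against 11.2 FPKM, and 47 against 11.3 FPKM. For both genes the HC125 value was far below the N2 value in each experiment.

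HC125 held 19.2% of the N2 level of C04F5.9 in the paired-end experiment (95% interval of the ratio 0.0922 to 0.401), and 19.5% in the single-end experiment (0.122 to 0.312). For C04F5.8 the shares were 18.5% (0.0905 to 0.377) and 24% (0.161 to 0.357). All 4 intervals lay below a ratio of 0.5. sid-1 itself, the reference point, held 6.61% and 6.36%, with 95% intervals of 2.99 to 14.6% and 3.36 to 12%. In the authors' deposited tables C04F5.9 and C04F5.8 had p = 5e-05 in both experiments, with q = 0.027 in the paired-end and q = 0.0411 in the single-end table. The log2 ratio of C04F5.9 minus that of C04F5.8 was 0.06 (95% interval -1.42 to 1.54) with paired ends and -0.30 (-1.18 to 0.59) with single ends. These intervals include equal falls and leave room for unequal ones.

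Calls here take a q of at most 0.05 from the authors' deposited tables. In the paired-end experiment 2 of 136 tested members were called lower, against 0.0331% of all tested genes, and 1 was called higher, against 0.179%. In the single-end experiment 2 of 113 tested members were called lower, against 0.0532%, and 0 higher, against 0.0684%. Of those 113, 1 was higher with a p below 0.05 before adjustment in the authors' deposited table, against 1.22% of all tested genes. Of the 112 members tested in both tables, 2 were called lower in both, against 0.0232% of all genes tested in both, and 0 higher, against 0.0154%. The share called lower in both is 3 of 12954 genes, and these are C04F5.8, C04F5.9 and sid-1. All shares over all genes given here include the members and sid-1. Combining both tables' p-values by Stouffer's method called C04F5.8 and C04F5.9 lower (0.0849% of all genes) and 0 members higher (0.185%). The lower calls here follow from the same p-values that gave the calls in each table, so they add no support. Of the 224 members, 87 were tested in neither table because their values were too low. The counts of called members thus cover the expressed part of the window.

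**Figure D1:**
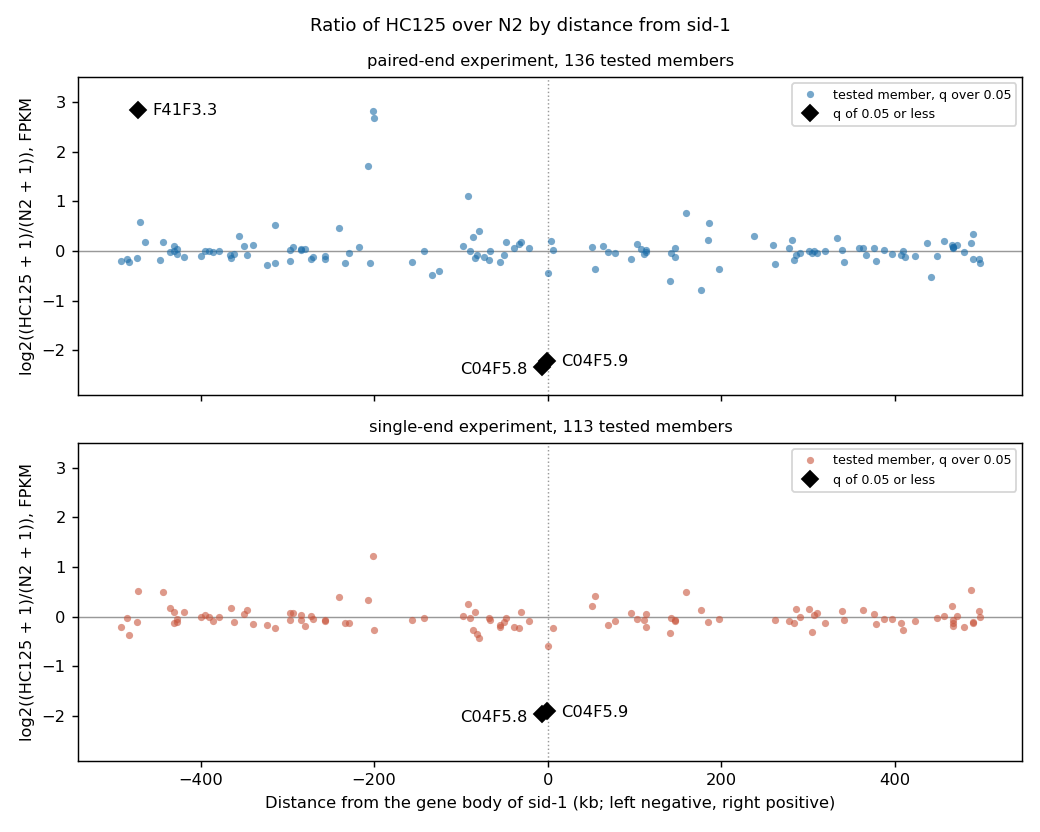
Log2 ratio of HC125 over N2 (1 FPKM added to both) for each tested member against its distance from sid-1 in kb, left negative and right positive, in the paired-end (136 members) and single-end experiment (113 members). Black diamonds are called members (q up to 0.05); C04F5.8 and C04F5.9 are the lowest points in both, near -2, and F41F3.3 stands high at the left edge in the paired-end experiment.

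To the right of sid-1 no member was called. The nearest there, F14F9.5 (V:5127093-5130081), is on the plus strand too and begins 176 bp after sid-1. It had 4.21 FPKM in N2 against 2.85 FPKM in HC125 with paired ends, and 2.14 against 1.07 FPKM with single ends. Its value was lower in HC125 in both experiments but was called in neither. In the authors' deposited tables it had p = 0.3 and p = 0.0356. Its ratio had 95% intervals of 0.236 to 1.94 and 0.207 to 1.22, which hold both no change and a ratio below 0.5.

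On the left, the gene beyond C04F5.8 is ugt-63, which belongs to a family left out of the group but lies next in line. It lies 9180 bp from sid-1, and had 34 against 44.2 FPKM, and 22.9 against 16.1 FPKM. It was called in neither, with p = 0.209 and p = 0.014 in the authors' deposited tables, so its value in HC125 was the higher one with paired ends and the lower one with single ends. The log2 ratio of C04F5.8 minus that of ugt-63 was -2.81 (95% interval -4.14 to -1.49) with paired ends and -1.55 (-2.36 to -0.74) with single ends. For C04F5.9 minus ugt-63 it was -2.76 (-4.10 to -1.41) and -1.85 (-2.73 to -0.96). All 4 of these intervals lay below 0. Against F14F9.5 on the right, the difference of C04F5.8 was -1.87 (-3.71 to -0.04) and -1.07 (-2.47 to 0.34). That of C04F5.9 was -1.82 (-3.67 to 0.04) and -1.36 (-2.81 to 0.09). Only the first of these 4 intervals lay below 0, and narrowly. The intervals are normal approximations from the implied errors, unadjusted over 10 differences, and the genes compared were chosen after the values were seen.

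None of the next members on either side was called. To the right of F14F9.5, F14F9.8 (3.40 kb from sid-1) had 1.45 against 1.83 FPKM, and 0.231 against 0.415 FPKM. F14F9.4 (5.82 kb) had 1.69 against 1.72 FPKM, and 0.649 against 0.408 FPKM. At these low levels the intervals are wide, from 0.275 to 5.76 for the ratio of F14F9.8 with paired ends. Between 10 and 50 kb on the right none of 13 members was tested in either experiment, and their highest value in either strain was 0.182 FPKM. The first member beyond this stretch of low values, C03A7.12 (51.4 kb), had 3.76 against 4.04 FPKM, and 1.41 against 1.80 FPKM. On the left, unc-46 (21.1 kb), whose product sorts the vesicular transporter of the neurotransmitter GABA, had 0.654 against 0.735 FPKM, and 0.566 against 0.482 FPKM. Y58A7A.2 (47.7 kb) had 2.49 against 2.98 FPKM, and 2.23 against 2.17 FPKM. mlk-1 (55.2 kb), a kinase that acts upstream in a stress-activated MAP kinase cascade, had 6.52 against 5.44 FPKM, and 2.17 against 1.83 FPKM. None of these genes had a deposited p under 0.05 in a table where it was tested. unc-46, F14F9.8 and F14F9.4 were chosen for their position after their values were seen.

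**Figure D2:**
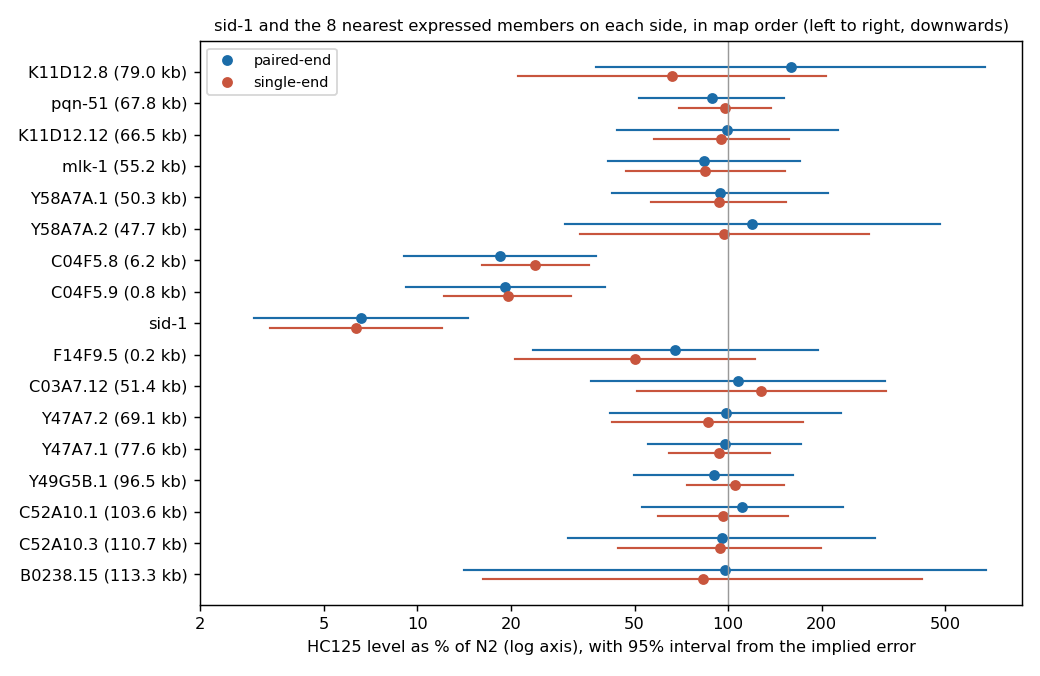
HC125 level as a percentage of N2, on a log axis, for sid-1 and the 8 nearest members on each side that reached 1 FPKM in both experiments, in map order. Points are the pooled values and bars the 95% intervals from the implied errors; sid-1 lies at 6.61% and 6.36%, C04F5.8 and C04F5.9 between 18.5% and 24%, F14F9.5 lower than 100% with bars that cross it, and the other members have bars that cross 100%.

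Beyond these genes the ratios centred near 0 at every distance. All medians here are of log2((HC125 + 1)/(N2 + 1)) in FPKM, a scale that understates the change of low genes. Over tested members the median was -0.01 with paired ends and -0.06 with single ends, against -0.03 and -0.04 over all tested genes and -0.03 and -0.03 over the rest of chromosome V. Members to the left had medians of -0.01 (71 tested) and -0.06 (61), and those to the right -0.01 (65) and -0.05 (52). The sides did not differ in their middle values by more than 0.01 in either experiment.

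In the nearest class, under 10 kb, the median of 5 tested members was -0.44 in the paired-end experiment, and that of 4 was -1.25 in the single-end experiment, with C04F5.8 and C04F5.9 among them. From 10 to 50 kb, 5 members were tested in each experiment, all on the left, with medians of 0.14 and -0.08. From 50 to 100 kb the medians were -0.03 (18 members) and -0.07 (17), from 100 to 250 kb -0.01 (27) and -0.06 (20), and from 250 to 500 kb -0.01 (81) and -0.05 (67). Every class beyond 10 kb thus had a median within 0.15 of 0. Spearman's rho of the ratio with distance was 0.01 over 136 members and 0.17 over 113, and -0.03 and 0.13 without C04F5.8 and C04F5.9. These are descriptions across genes, which share libraries and are not replicates.

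The implied errors set how small a change could be seen. Their median over tested members on the log2 scale was 0.71 with paired ends and 0.43 with single ends. Over all genes it was 0.66 and 0.40. The quartiles of the log2 ratios of all tested genes, with 1 FPKM added, were -0.12 and 0.08, and -0.14 and 0.07. The median errors were wider than these quartiles, but they belong to ratios with no FPKM added. Adding 1 FPKM narrows the ratios of low genes, so the scales differ. Without C04F5.8 and C04F5.9, the 95% interval lay wholly above a ratio of 0.5 for 39 of 134 members with paired ends. With single ends it did so for 66 of 111. Over all genes it did so for 4789 of 15069 and 7879 of 13093. For the other members the interval reached 0.5 or lower, so it includes a fall of that size. Of the 134 and 111 intervals none lay wholly below 1, against 20 of 15069 and 59 of 13093 over all genes. C04F5.8 and C04F5.9 had the only member intervals below 1, so this follows from leaving them out. The counts over all genes still include them. Wholly above 1 lay 4 of 134 with paired ends, against 91 of 15069 over all genes, and 0 of 111 with single ends, against 50 of 13093. Members on the plus strand, as sid-1 is, had medians of -0.01 (69 tested) and -0.07 (56), and those on the minus strand -0.03 (65) and -0.04 (55).

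The 12 members with the highest N2 levels over both experiments lay more than 100 kb from sid-1, and none was called. C10G8.4 had 492 against 577 FPKM, and 957 against 895 FPKM. T19H12.2 had 310 against 303 FPKM, and 785 against 715 FPKM. pmt-2, a methyltransferase of phosphatidylcholine synthesis, had 496 against 441 FPKM, and 399 against 390 FPKM.

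Among abundant members with known roles in protein upkeep, hsp-6, the mitochondrial HSP70 chaperone, had 244 against 260 FPKM, and 268 against 281 FPKM. pas-6, a subunit of the 20S proteasome, had 215 against 246 FPKM, and 293 against 297 FPKM. dnj-19, a J-domain co-chaperone, had 239 against 251 FPKM, and 110 against 115 FPKM. The HC125 value was slightly above the N2 value in both experiments for these 3 genes, with 95% intervals that include 1. rhr-1, of the Rh family of ammonium transporters, had 150 against 149 FPKM, and 141 against 157 FPKM. C37H5.6 (adss-1 in the annotation) had 151 against 152 FPKM, and 175 against 167 FPKM. B0238.11 (penr-1 in the annotation) had 191 against 186 FPKM, and 178 against 174 FPKM, and C24G6.8 112 against 106 FPKM, and 213 against 197 FPKM.

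Members known from the germline or from chromatin, some of them chosen for these roles after their values were seen, were also uncalled. pgl-3, a P granule protein, had 110 against 105 FPKM, and 125 against 117 FPKM. syp-2, a central element of the synaptonemal complex, was at 118 FPKM in both strains of the paired-end experiment and 111 against 92.7 FPKM in the other. hil-4, a linker histone, had 181 against 164 FPKM, and 171 against 192 FPKM. cpg-8, named with the chondroitin proteoglycans of the eggshell, had 158 against 162 FPKM, and 501 against 486 FPKM. snpc-1.3, a factor for transcription of male piRNAs, was under 1 FPKM in every value. tam-1, which is known for keeping repetitive transgene arrays active, had 75.4 against 64.2 FPKM, and 65.1 against 62.2 FPKM. The deposited p of these 6 genes ranged upward from 0.142 in the authors' deposited tables, where that value is of syp-2 with single ends.

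**Figure D3:**
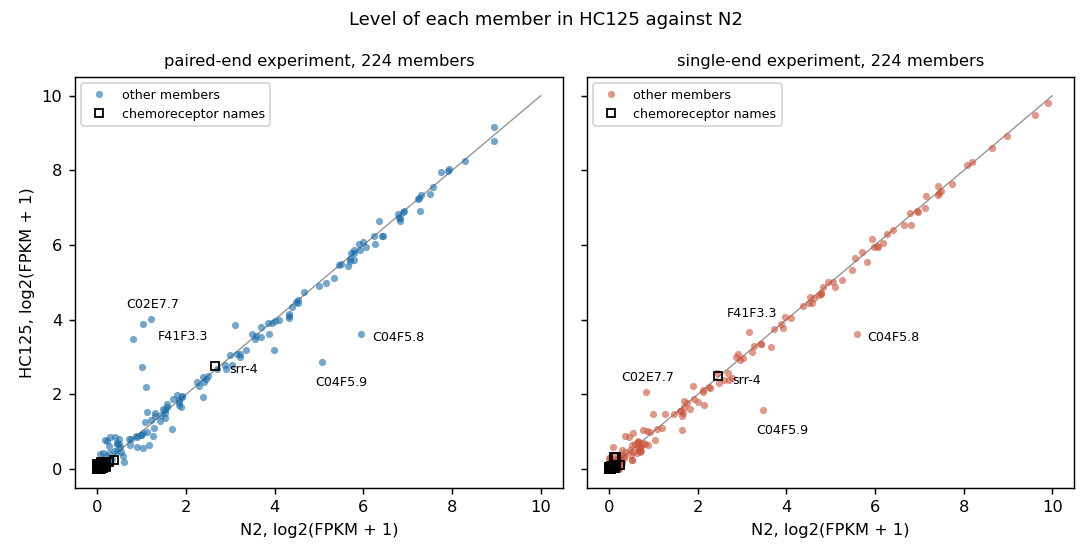
Level of each of the 224 members in HC125 (vertical) against N2 (horizontal), as log2(FPKM + 1), with the line of equal levels. Open squares are chemoreceptor names, which sit near the origin except for srr-4; C04F5.8 and C04F5.9 lie below the line in both experiments, and C02E7.7 and F41F3.3 lie above it in the paired-end panel.

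Much of the window had values under 1 FPKM. At 1 FPKM or more in at least 1 strain there were 111 members (49.6%) with paired ends and 92 (41.1%) with single ends, against 63.5% and 56.6% of all genes and 46.3% and 40.6% of the rest of chromosome V. In N2, 38 and 49 members were listed at 0. Of 48 members with chemoreceptor names (srx-, str-, srd-, srh-, srsx-, srr-, srab-, srw-, srt- and srg-), 1 reached 1 FPKM in each experiment. That gene, srr-4 (97.6 kb to the left), had 5.32 against 5.77 FPKM, and 4.54 against 4.59 FPKM. srab-3, the nearest chemoreceptor gene to the left of sid-1 (12.1 kb), had 0.125 against 0.0619 FPKM, and 0.195 against 0.0729 FPKM, too low to test.

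Other small families were low as well. The 4 cwp genes, known for expression in male sensory neurons together with the polycystins, reached at most 0.541 FPKM. The 4 abu genes, named for activation in a blocked unfolded protein response, reached at most 0.317 FPKM, the value of abu-8 in HC125 in the paired-end experiment. Among the 3 globins, glb-6 had 1.23 against 0.556 FPKM in the paired-end experiment and 0.268 against 0.219 FPKM in the other. glb-32 had 0.411 against 0.606 FPKM, and 0.496 against 0.589 FPKM. No member was listed at 0 in 1 strain and at 1 FPKM or more in the other.

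The 3 ncx genes, which encode sodium-calcium exchangers, had lower values in HC125 with paired ends, and none was called. ncx-2 (177 kb to the right) had 14.7 FPKM in N2 against 8.13 FPKM in HC125, with p = 0.0109 in the authors' deposited table. With single ends it had 6.28 against 7.05 FPKM and was the higher in HC125. ncx-9 had 0.52 against 0.143 FPKM (p = 0.0398 in the authors' deposited table), and ncx-8 1.06 against 0.47 FPKM (p = 0.0795). Both were too low to test in the single-end experiment. In all, 4 of 136 members were lower with a p below 0.05 before adjustment in the paired-end table, against 0.351% of all tested genes, and 3 of 113 in the single-end table, against 1.16%. C04F5.8 and C04F5.9 are in both counts, with ncx-2 and ncx-9 in the first and F14F9.5 in the second.

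The one member called higher was F41F3.3 (WBGene00018297; V:4647661-4648241), 472 kb to the left, in the paired-end experiment. It had 1.05 FPKM in N2 against 13.8 FPKM in HC125, a ratio of 13.1 (95% interval 4.24 to 40.3), with p = 5e-05 and q = 0.027 in the authors' deposited table. With single ends it had 7.92 against 11.8 FPKM, a ratio of 1.49 (0.599 to 3.71), with p = 0.258 in the authors' deposited table. The HC125 values were closer to each other than the N2 values were, though the tables were normalised separately. The log2 ratio of F41F3.3 with single ends minus that with paired ends was -3.13 ± 1.07 (implied SE).

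At an unadjusted p under 0.05, 6 of 136 members were higher in the paired-end table, against 0.926% of all tested genes. All 6 lie to the left of sid-1, as do 71 of the 136 tested members. Besides F41F3.3 these were H23N18.5, C02E7.7, C02E7.6, cpt-4 and T19H12.6. The first 3 of these 5 lie within 7818 bp of each other about 200 kb from sid-1, and span 620, 432 and 375 bp. Neither the side nor the spacing of these genes was tested. C02E7.7 had 1.33 against 15.4 FPKM with paired ends and 0.793 against 3.19 FPKM with single ends. C02E7.6 had 0.743 against 10.2 FPKM, and 1.07 against 0.714 FPKM. H23N18.5 had 1.01 against 5.61 FPKM, and 2.72 against 3.71 FPKM. The value of C02E7.7 and H23N18.5 was higher in HC125 in both experiments, and that of C02E7.6 only in the paired-end one.

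In the authors' deposited tables the p of C02E7.7 was 0.00655 and 0.0609, that of C02E7.6 was 0.0121 and 0.656, and that of H23N18.5 was 0.0222 and 0.505. For C02E7.6 the difference in log2 ratio of single-end minus paired-end was -4.36 ± 2.01 (implied SE). H23N18.6, which lies between them, had 0.495 against 0.268 FPKM in the paired-end experiment (chosen for its position). cpt-4, of the carnitine palmitoyltransferase family, which brings fatty acids into mitochondria, had 1.13 against 3.60 FPKM, with p = 0.00385 in the authors' deposited table, and 0.717 against 1.06 FPKM in the single-end experiment. In the paired-end table, 10 of 112 tested cuticle collagen (col-) genes among 157 were called higher, against 0.179% of all tested genes, and 77 had the higher value in HC125, with a median log2 ratio of 0.26. With single ends 46 of 101 had the higher value in HC125 and 0 were called. Their summed level was 29097 against 28436 FPKM with paired ends, and 54804 against 47079 FPKM with single ends, the lower in HC125 in both. In N2, 15 and 19 of the 157 were listed at 0. The part of the collagen values in those of F41F3.3 and the C02E7 genes was not tested.

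T19H12.6 (241 kb to the left) was the only member outside C04F5.8 and C04F5.9 with an unadjusted p under 0.05 in both tables, and the only one higher at that p in the single-end table (1 of 113, against 1.22% of all tested genes). It had 0.323 against 0.827 FPKM, and 0.365 against 0.803 FPKM, so its level stayed under 1 FPKM. In the authors' deposited tables it had p = 0.0423 and p = 0.0345. Combined by Stouffer's method its adjusted p over 12954 genes was 0.634.

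**Figure D4:**
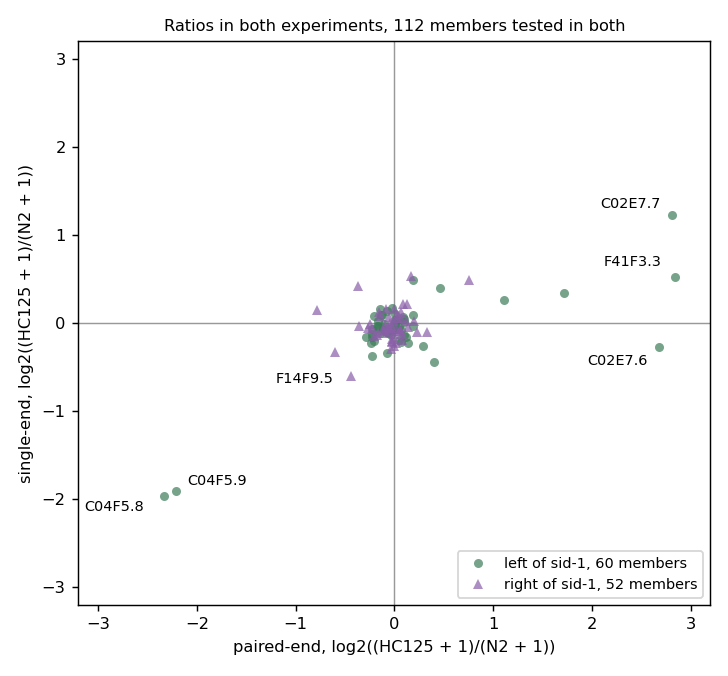
Log2 ratio of HC125 over N2 (1 FPKM added to both) in the single-end experiment (vertical) against the paired-end experiment (horizontal) for the 112 members tested in both, by side of sid-1. C04F5.8 and C04F5.9 are near -2 on both axes, F41F3.3, C02E7.6 and C02E7.7 are near 3 on the horizontal axis, and most other members lie around 0.

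Between experiments, the ratios of the members were weakly related in rank. Over 112 members tested in both, Pearson's r was 0.66 and Spearman's rho 0.25. Without C04F5.8 and C04F5.9 these were 0.48 and 0.21, and over all 12954 genes tested in both 0.22 and 0.09. The experiments used separate libraries, and these are descriptions across genes with no p. Of the 112 members, 48 were lower in HC125 in both, 24 were higher in both, and 40 went opposite ways. Over all 12954 genes these counts were 4866, 2265 and 5823, so more genes were lower than higher in both there too. The ratios of F41F3.3 and C02E7.6 differed between experiments beyond the 95% interval of the difference, so 2 of 112 members did, against 41 of 12921 genes. Neither passed Benjamini-Hochberg adjustment over those genes.

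The tissues expected in young adult worms were present in both strains. The germline regulator gld-1 had 648 against 612 FPKM, and 435 against 398 FPKM, and the body wall muscle myosin myo-3 16.1 against 15.2 FPKM, and 7.48 against 8.15 FPKM. Of the 31 msp- names, which encode major sperm proteins, 23 of 29 tested genes were higher in HC125 with paired ends, with a median log2 ratio of 0.12, and 28 of 28 were higher with single ends, with a median of 0.99. Their summed level was 2816 against 3044 FPKM, and 328 against 664 FPKM. In N2, 1 and 3 of them were listed at 0, and 0 were called in either experiment. The pharyngeal myosin myo-1 was called lower with paired ends, 14.4 against 3.47 FPKM, and had 4.59 against 4.10 FPKM with single ends. The other pharyngeal myosin listed, myo-2, was called lower with paired ends too, 9.12 against 2.56 FPKM, and had 3.34 against 3.40 FPKM with single ends. The part of these markers in the members' values was not tested.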

How the data were processed

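Per the file headers, both tables follow Cuffdiff output; TopHat2 2.0.1 and Cufflinks 2.2.1 are named in the submitters' processing notes. No build or annotation is given in the sources used here. The authors pooled the libraries of a strain and deposited FPKM values, with a test score, a p-value and a q-value per gene for HC125 against N2. File starts count from 0: with 1 added, 5767 of 20194 starts equal those of the WBcel235 annotation, against 389 as written, so positions are printed from 1. Without strand, the paired-end values can mix overlapping genes on opposite strands.

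Calls need a completed test and q of at most 0.05. Ratios are HC125 over N2. The implied standard error is the log2 FPKM ratio divided by the deposited score, intervals use a normal approximation, and they can be wider than the deposited p-values imply. Medians use a pseudocount of 1 FPKM. Stouffer p-values and differences between experiments were adjusted by the Benjamini-Hochberg method over all genes tested in both tables. Stouffer's method, the adjustment and the differences between experiments were tested on simulated data (Python 3.11.15, scipy 1.17.1). Those data took the implied errors as true, so the errors and intervals themselves were not tested.

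Named genes are members called, the 8 nearest expressed on each side, those at an unadjusted p under 0.05, the 12 of highest N2 level, up to 4 per name group, and those differing between experiments; other choices are marked in the text. The members, lists and tests were chosen with earlier results of these data known.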

Additional observations from a re-analysis of the deposited data

How the results depend on the processing

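At a q of 0.01 or less 0 members were called. The 1 higher and 2 lower calls of the paired-end and the 2 lower calls of the single-end experiment were lost. The smallest deposited q values among members are 0.027 and 0.0411. sid-1 itself, at 6.61% and 6.36% of N2, had these same q values. It would be lost too, so the loss does not set these members apart from sid-1. In the authors' deposited test sid-1 and every called member had the same p = 5e-05. A limit of 0.01 therefore drops all of them together and cannot grade the calls. Without C04F5.8 and C04F5.9, a setting added after seeing the data, 0 members were lower in either experiment, by construction. The counts within each experiment stood at a q of 0.10, with a filter at 1 FPKM and with the left-out families put back, and the counts of calls in both tables stood at a q of 0.10 and under Stouffer's combination. The lower calls under that combination follow from the same p-values as the first calls. The medians under 10 kb in both experiments, and that of 10 to 50 kb with single ends, moved by more than 0.1, the limit used for medians. With a pseudocount of 0.1 FPKM, the median under 10 kb was -0.55 (paired-end) and -1.49 (single-end), and that of 10 to 50 kb was -0.19 (single-end). In the single-end experiment the filter at 1 FPKM gave -1.90 under 10 kb (3 members), and distance between midpoints gave -0.22 for 10 to 50 kb (6 members). These classes hold few genes. The other medians moved less than the limit under the alternatives run for them. The log2 ratio of C04F5.9 with single ends went from -1.90 to -2.30 with that pseudocount, which is more than its implied error of 0.35. The other ratios of named members moved less than their implied error under that pseudocount and under centring. No paired analysis was possible because the tables hold 1 pooled value per strain and experiment; for the same reason no replicate could be left out.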
